A study of Arabidopsis thaliana with 24 samples.

Results

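The flavonoid pathway was followed through 10 enzyme genes of Arabidopsis thaliana, taken by locus from a table of 33602 loci. They are CHS, CHI, F3H, F3'H and FLS1 of the early steps and DFR, LDOX, UGT75C1, UF3GT and 5MAT of the late, anthocyanin-specific steps. Their RNA was counted by sequencing in seedling shoots, 3 weeks old and all of the ecotype Columbia-0. The 4 genotypes were Col-0 (wild type), cat2 (mutant in the leaf catalase CAT2), shr (mutant in the transcription factor SHORT-ROOT) and cat2shr (both mutations), and the labels name no allele for any of them. Each genotype was sampled at 0 h and after 24 h of photorespiratory stress with 3 replicates, which gave 8 groups and 24 libraries. For the stress, plates of plants aged 21 days were resealed with Parafilm, which restricts gas exchange, and the light became continuous. The samples used here hold no unstressed group at 24 h, so the seal, the light and the elapsed time cannot be told apart. How many plants gave each library is not described, so a p-value below measures only the spread between these libraries.

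Flavonoids are made from phenylalanine through 4-coumaroyl-CoA. Chalcone synthase (CHS) commits this precursor to the pathway, chalcone isomerase (CHI) closes the ring, and the flavanone and flavonoid hydroxylases (F3H and F3'H) make dihydroflavonols. There the route forks. Flavonol synthase (FLS1) makes flavonols, while dihydroflavonol reductase (DFR) and leucoanthocyanidin dioxygenase (LDOX) lead to anthocyanins, the red and purple pigments of stressed leaves. Those pigments are then decorated by a glucosyltransferase (UGT75C1), a xylosyltransferase (UF3GT) and a malonyltransferase (5MAT). In Arabidopsis the MYB factors MYB11, MYB12 and MYB111 act on early genes, and a complex of MYB75 (PAP1) or its relatives with a bHLH factor such as TT8 and the WD40 protein TTG1 acts on the late genes.

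Bases just upstream of 4 genes are shown because these genes span the contrast between early and late steps. CHS is the entry step, DFR and UF3GT are late genes with a G-box, the hexamer CACGTG bound by bHLH and bZIP factors, and LDOX is a late gene without that hexamer. Each run is the 250 bases before the annotated start of the gene, written 5′ to 3′ on the strand of the gene from the RefSeq genome TAIR10.1. Capitals mark CACGTG. CHS lies at chr5:4488226-4488475 on the plus strand, DFR at chr5:17166033-17166282, UF3GT at chr5:21938397-21938646 and LDOX at chr4:12006210-12006459, these on the minus strand.
CHS: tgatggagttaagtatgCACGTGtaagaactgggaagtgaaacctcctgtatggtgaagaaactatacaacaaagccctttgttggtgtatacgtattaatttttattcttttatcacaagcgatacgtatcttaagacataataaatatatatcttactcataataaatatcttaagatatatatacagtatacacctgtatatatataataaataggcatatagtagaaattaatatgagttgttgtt
DFR: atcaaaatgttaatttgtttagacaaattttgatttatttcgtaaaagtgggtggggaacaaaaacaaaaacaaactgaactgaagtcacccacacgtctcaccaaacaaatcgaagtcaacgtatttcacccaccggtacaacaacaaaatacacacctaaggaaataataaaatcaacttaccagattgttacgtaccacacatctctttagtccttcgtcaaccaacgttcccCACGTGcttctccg
UF3GT: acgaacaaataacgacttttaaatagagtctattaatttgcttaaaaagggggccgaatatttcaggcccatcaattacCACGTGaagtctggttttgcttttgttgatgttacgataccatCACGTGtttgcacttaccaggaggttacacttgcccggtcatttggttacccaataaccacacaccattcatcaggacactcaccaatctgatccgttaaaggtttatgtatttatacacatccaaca
LDOX: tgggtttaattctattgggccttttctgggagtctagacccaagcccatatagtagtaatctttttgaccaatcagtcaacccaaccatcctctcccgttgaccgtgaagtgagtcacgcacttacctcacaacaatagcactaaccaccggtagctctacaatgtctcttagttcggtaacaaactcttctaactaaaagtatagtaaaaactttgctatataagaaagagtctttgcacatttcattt

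The hexamer CACGTG began 233 bases before the start of CHS, 14 before DFR, and 171 and 128 before UF3GT. It was also found 249 bases before F3H, so 4 of the 10 genes held it, against 6.49% of 27443 promoters of protein-coding genes of the same length. Among the late genes UGT75C1 held ACCAACC, a MYB element found in 2.69% of promoters, 243 bases before its start, and none of the 10 held ACCTACC (1.16%). Both strands were searched, and every CACGTG also counts as the looser E-box CANNTG (55.3% of promoters) and as the core ACGT (44.1%). LDOX and FLS1 held none of these letters in the window. A match is a description of the letters and says nothing of binding in these seedlings.

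The genes are spread over the genome. On chromosome 5 of TAIR10.1 lie CHS (AT5G13930, bases 4488476 to 4490264, plus strand), F3'H (AT5G07990, 2560328 to 2563137, plus), FLS1 (AT5G08640, 2803833 to 2805606, plus), DFR (AT5G42800, 17164093 to 17166032, minus) and UF3GT (AT5G54060, 21936746 to 21938396, minus). On chromosome 3 lie CHI (AT3G55120, 20430059 to 20431597, minus), F3H (AT3G51240, 19025192 to 19026872, plus) and 5MAT (AT3G29590, 11398592 to 11400332, minus). LDOX (AT4G22880, 12004726 to 12006209, minus) and UGT75C1 (AT4G14090, 8122188 to 8123835, minus) lie on chromosome 4. UGT75C1 shares 230 of its 1648 exonic bases with AT4G14100 on the other strand, so some of its counts may belong to that neighbour if strand was ignored in counting.

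Total counts ran from 26.43 to 40.11 M per library. Levels below are counts per M counts of a library (CPM), after its total was scaled by edgeR's normalization factor (TMM), with the SD over 3 libraries. A change is a log2 fold change with its SE from edgeR's quasi-likelihood test. A gene is said to have risen or fallen only at a Benjamini-Hochberg adjusted p under 0.05, adjusted over the 20347 genes tested. CAT2 stood at 374 ± 150 CPM in Col-0 and 17.5 ± 4 CPM in cat2 at 0 h, and SHR 9.96 ± 0.74 CPM in Col-0 against 1.04 ± 0.0244 CPM in shr, as the genotype labels state. Leaf markers were abundant in every library, with RBCS1A means between 4110 and 13900 CPM. Of 5 root markers, WOX5, COBL9, CASP1 and IRT1 summed to at most 2.27 CPM in any library, while PYK10 measured 64.6 to 155 CPM by group. Seed coat markers summed to at most 3.07 CPM and floral markers to at most 4.92 CPM. The 4 leaf markers summed to 37400 to 40400 CPM in Col-0 at 0 h and to 30100 to 30900 CPM in shr. They did not move together, since CAB1, LHCB2.1 and CA1 were lower in shr and RBCS1A was higher (log2 0.39, adjusted p = 0.023). The part of leaf marker levels in the results below was not tested. In bulk RNA, fewer cells expressing a gene and less RNA of it per cell cannot be told apart.

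F3H stood apart from the other 9 genes. It had 2 counts in shr replicate 1 and 1 count in shr replicate 2 at 0 h and 0 counts in every other library, so it failed the filter on low counts and was not tested. In TAIR10.1, 1415 of its 1508 exonic bases (93.8%) are also covered by the antisense locus AT3G51238, which lies at bases 19025110 to 19026779 of chromosome 3 on the minus strand and had 0 counts in every library. Among protein-coding loci covered to 90% or more by another locus, 73 of 330 (22.1%) were at 0 in all libraries, against 2286 of 20159 (11.3%) without any overlap and 118 of 6223 (1.9%) with a smaller overlap. The strand setting of the counting is not given in the sources used here, and the part of the overlap in the zeros of F3H was not tested. The values below therefore carry no information on the flavanone 3-hydroxylase step.

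The shr single mutant had the most flavonoid enzyme RNA before stress. All 9 measured genes had their highest group mean in shr at 0 h, and all 9 rose there over Col-0, whereas 21.3% of all genes tested were higher and 24.1% lower in that comparison. The median change of the 9 genes was 1.68 on the log2 scale, and medians over all genes stayed between -0.034 and 0.027 in every comparison. The early steps were raised in every shr library. The late steps were raised many-fold in replicates 1 and 2 and little in replicate 3.

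CHS measured 9.33, 7.25 and 6.9 CPM in the Col-0 libraries at 0 h and 25.4, 35.5 and 14.4 CPM in shr. All 3 shr libraries lay above all Col-0 libraries, and the gene rose by 1.68 ± 0.25 on the log2 scale (adjusted p = 3.63e-05). CHI rose by 0.85 ± 0.14 (adjusted p = 9.86e-05), from 5.75, 6.1 and 6.28 CPM to 11.5, 12 and 9.2 CPM. The groups did not overlap for CHI either. F3'H, which adds the hydroxyl group that separates quercetin and cyanidin from kaempferol and pelargonidin, measured 2.26, 2.42 and 2.64 CPM in Col-0 and 5.23, 5.96 and 4.52 CPM in shr. It rose by 1.10 ± 0.13 (adjusted p = 2.89e-06). FLS1 rose least, by 0.58 ± 0.15 (adjusted p = 0.00384), from 4.91, 4.42 and 3.57 CPM to 6.72, 5.96 and 6.59 CPM. Between the highest and lowest shr library the spread was 1.13-fold for FLS1, 1.3-fold for CHI and 1.32-fold for F3'H. For CHS it was 2.46-fold, with replicate 3 lowest.

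**Figure D1:**
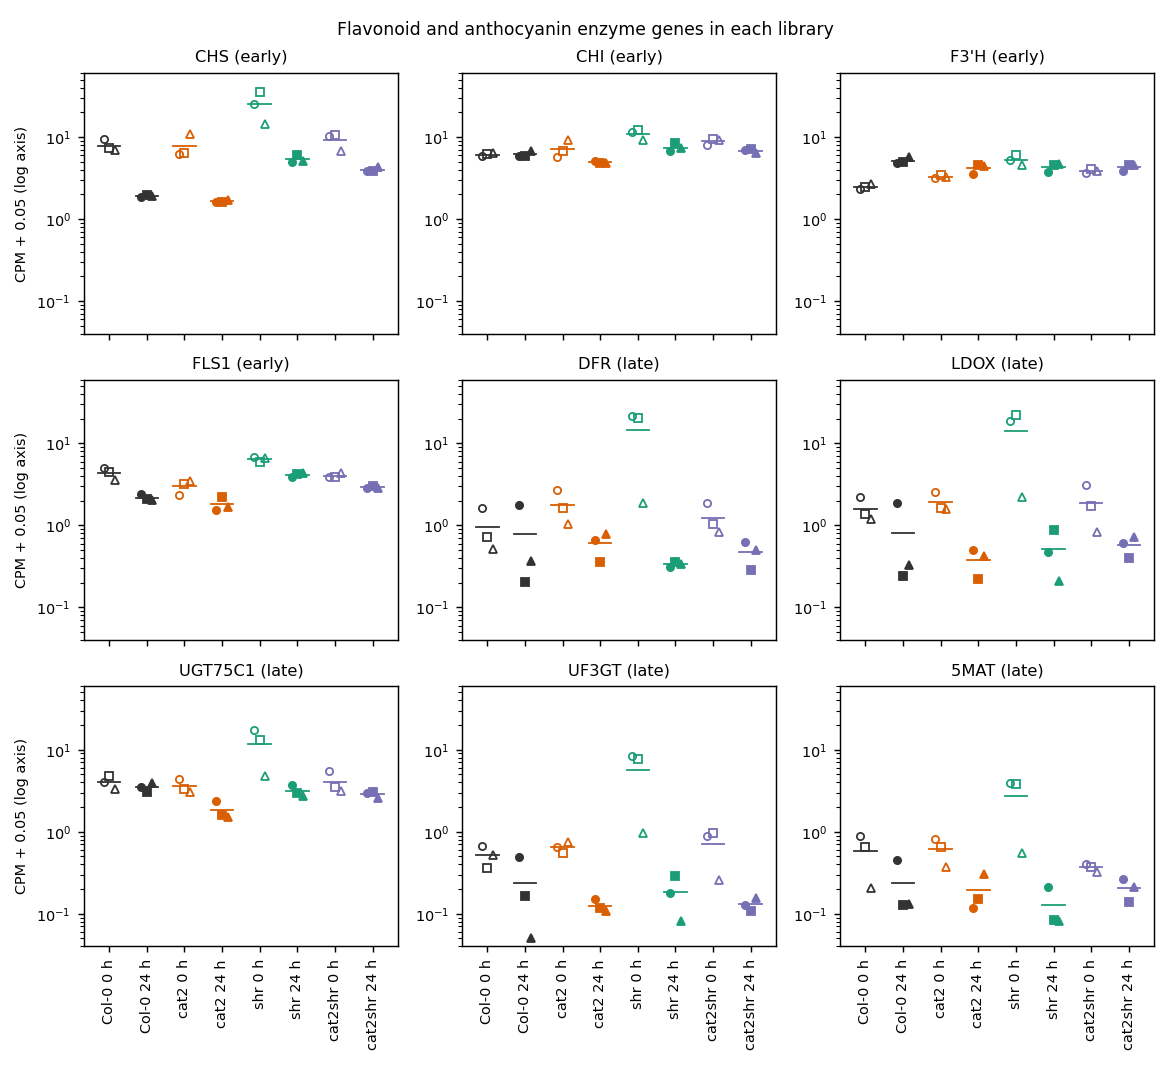
CPM + 0.05 on a log axis for each of the 9 measured genes in all 24 libraries, by genotype and time; circles, squares and triangles are replicates 1, 2 and 3, open at 0 h and filled at 24 h, and bars are group means. The mean of shr at 0 h is the highest in every panel, its libraries overlap those of other groups for some genes (F3'H, CHI and UGT75C1 among them), and replicate 3 lies far below the other two for DFR, LDOX, UF3GT and 5MAT.

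The late steps split the shr libraries. DFR measured 1.58, 0.666 and 0.465 CPM in Col-0 at 0 h and 21.4, 20.3 and 1.82 CPM in shr, which are 630, 780 and 66 counts. Replicates 1 and 2 of shr were thus 23.7- and 22.5-fold over the Col-0 mean and replicate 3 was 2.01-fold over it. LDOX showed the same split, with 2.16, 1.33 and 1.16 CPM in Col-0 and 18.7, 22 and 2.18 CPM in shr. Replicate 3 was here 1.4-fold over the Col-0 mean and only just above the highest Col-0 library.

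The decorating enzymes divided in the same way. UGT75C1 measured 4.04, 4.73 and 3.26 CPM in Col-0 and 17.5, 13 and 4.77 CPM in shr. UF3GT measured 0.613, 0.315 and 0.465 CPM in Col-0 and 8.25, 7.68 and 0.909 CPM in shr. For 5MAT, 0.839, 0.596 and 0.155 CPM in Col-0 stood against 3.84, 3.72 and 0.496 CPM in shr. It was the gene of the 9 whose shr and Col-0 libraries overlapped, since replicate 3 was 0.936-fold of the Col-0 mean.

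With all 3 libraries in the fit, the late genes rose by 3.97 ± 0.77 for DFR (adjusted p = 0.000474), 3.19 ± 0.72 for LDOX (adjusted p = 0.00162) and 1.55 ± 0.32 for UGT75C1 (adjusted p = 0.000816). UF3GT rose by 3.57 ± 0.68 (adjusted p = 0.000351) and 5MAT by 2.30 ± 0.62 (adjusted p = 0.00557). All 9 genes also passed with each of the 6 libraries left out in turn. A fit on the Col-0 and shr libraries of 0 h alone left 5MAT short of the threshold (adjusted p = 0.0815). The size of the late rise came from 2 of the 3 shr libraries.

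**Figure D2:**
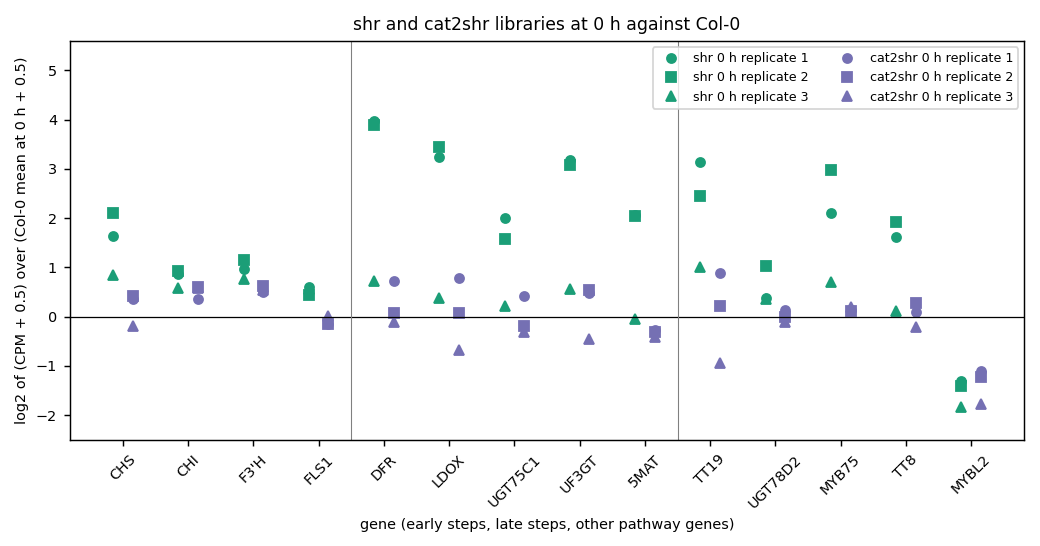
Level of 14 pathway genes in each shr (green) and cat2shr (purple) library at 0 h, as the log2 of (CPM + 0.5) over the mean CPM of Col-0 at 0 h + 0.5; grey lines separate early steps, late steps and other pathway genes. The 3 shr points lie close together for CHI, F3'H and FLS1 and far apart for DFR, LDOX, UF3GT and 5MAT, and MYBL2 is below 0 in all 6 libraries.

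Other genes of the anthocyanin branch were split over the same libraries. TT19, the glutathione S-transferase that anthocyanins need to reach the vacuole, was 10.7- and 6.5-fold over the Col-0 mean in shr replicates 1 and 2 and 2.25-fold in replicate 3. MYB75 was 5.39-, 10.1- and 1.85-fold over that mean, and TT8 was 7.41-, 9.61- and 1.27-fold. The TT8 folds rest on a low base, with 0.226, 0.14 and 0.349 CPM in Col-0 and 1.77, 2.29 and 0.303 CPM in shr. UGT78D2, the 3-O-glucosyltransferase that flavonols and anthocyanins share, lay between 1.3- and 2.09-fold in the 3 libraries. Over all genes the median absolute distance of shr replicate 3 from its group was 0.124 on the log2 scale. It was 0.143 for shr replicate 1 and at most 0.174 for any library. Such a median cannot show a difference limited to some genes. Why the 3 shr libraries differ was not tested. The root marker sum without PYK10 was 0.634 to 1.19 CPM in shr and 0.387 to 0.426 CPM in Col-0 at 0 h. Its genes did not move together. IRT1 measured 0.815, 0.677 and 0.248 CPM in shr and 0 CPM in Col-0. WOX5 was lower in shr, with 0.0679, 0.156 and 0.193 CPM against 0.291, 0.35 and 0.194 CPM in Col-0. COBL9, CASP1 and PYK10 overlapped between shr and Col-0.

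MYBL2, a small MYB protein that represses the anthocyanin complex, moved the other way and in every library. It measured 99.4, 93.7 and 102 CPM in Col-0 at 0 h and 39.5, 36.5 and 27.2 CPM in shr, a fall of 1.52 on the log2 scale (SE 0.16, adjusted p = 4.78e-07). In cat2shr it measured 45.4, 41.9 and 28.5 CPM, which was lower than in cat2 (log2 -1.25 ± 0.16, adjusted p = 7.93e-06) and not distinguishable from shr (log2 0.17 ± 0.15, adjusted p = 0.602). Low MYBL2 was measured in both shr and cat2shr, and its part in the levels of the enzyme genes was not tested.

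The double mutant had lower levels than shr for most of the enzyme genes. In cat2shr against shr at 0 h, 7 of the 9 genes fell and none rose, whereas 1.59% of all genes were lower and 1.44% higher. DFR measured 1.82, 0.978 and 0.79 CPM in cat2shr and fell by 3.59 on the log2 scale (SE 0.75, adjusted p = 0.0149). CHS measured 10.2, 10.6 and 6.73 CPM and fell by 1.46 (SE 0.25, adjusted p = 0.00383), and FLS1 fell by 0.69 (SE 0.15, adjusted p = 0.0164). LDOX, UGT75C1, UF3GT and 5MAT fell by 2.95, 1.54, 3.10 and 3.05, with adjusted p between 0.0149 and 0.0318. CHI (log2 -0.31, adjusted p = 0.237) and F3'H (log2 -0.46 ± 0.13, adjusted p = 0.0545) did not pass. CHI measured 7.85, 9.31 and 9.27 CPM and F3'H 3.63, 3.99 and 3.78 CPM in cat2shr. For both genes every cat2shr library lay above every Col-0 library of 0 h, a difference that was not tested. The comparison of cat2shr with shr uses the same shr libraries as that of shr with Col-0.

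The count for cat2shr against shr was fragile. Leaving out 1 library moved it between 2 and 8 genes. It was 5 without shr replicate 1, 2 without shr replicate 2, 8 without shr replicate 3, and 2 without either cat2shr replicate 2 or cat2shr replicate 3. A fit on these 2 groups alone called none of the 9, and 7 genes of all. For CHI, LDOX and UGT75C1, replicate 3 of shr did not exceed the highest cat2shr library. For DFR, shr replicate 3 and cat2shr replicate 1 both measured 1.82 CPM. For UF3GT, shr replicate 3 measured 0.909 CPM and cat2shr replicate 2 measured 0.906 CPM.

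The other comparisons at 0 h called few of the genes. In cat2 against Col-0, F3'H was higher (log2 0.42 ± 0.14, adjusted p = 0.0331) and FLS1 was lower (log2 -0.53 ± 0.15, adjusted p = 0.0169), so 1 of 9 genes rose and 1 fell where 11.5% of all genes rose and 11.8% fell. F3'H measured 3.15, 3.37 and 3.23 CPM in cat2, above every Col-0 library, and FLS1 measured 2.28, 3.17 and 3.45 CPM, below every Col-0 library. CHS measured 6.2, 6.3 and 10.8 CPM and DFR 2.62, 1.58 and 0.991 CPM in cat2, and both overlapped Col-0. Neither call held without Col-0 replicate 1 or without Col-0 replicate 2. In cat2shr against cat2, FLS1 rose by 0.42 ± 0.15 (adjusted p = 0.0405) and no other gene of the 9 passed, where 17.2% of all genes were higher and 17.8% lower. The late genes changed there by -0.81 to 0.20. The FLS1 call ended under library size scaling, without the filter on low counts, in the fit on those groups alone, and in 5 of 6 fits without a library, cat2 replicate 3 being the exception.

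**Figure D3:**
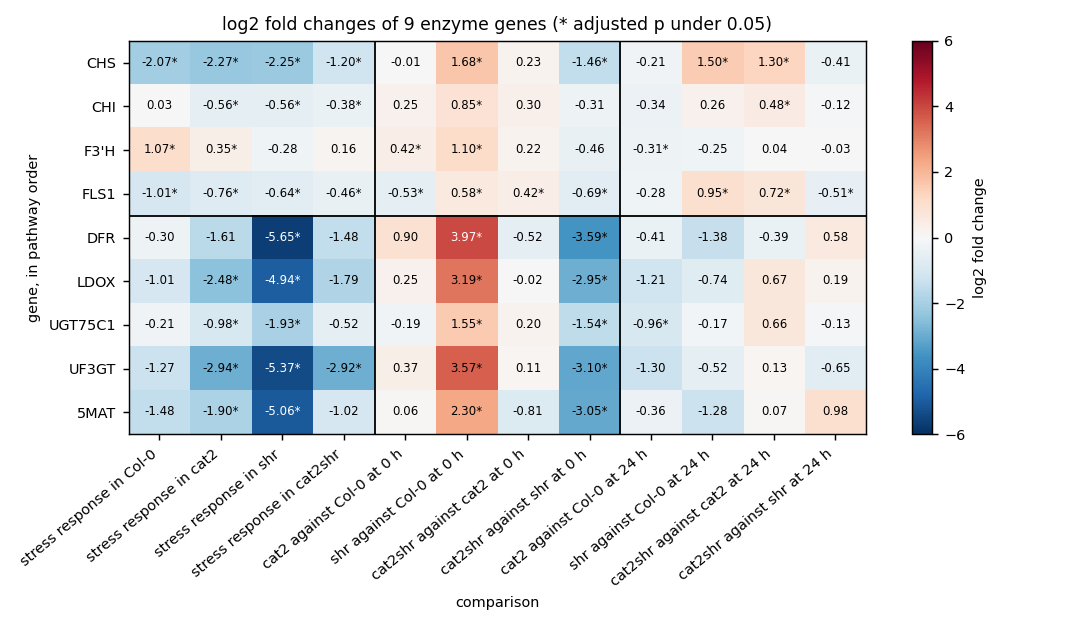
Log2 fold changes of the 9 measured genes (rows, in pathway order, early above the line) in the 4 stress responses and in the genotype comparisons at 0 h and 24 h (columns); an asterisk marks an adjusted p under 0.05. The darkest cells are the late genes in shr, higher than Col-0 at 0 h and lower after stress.

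Stress lowered CHS in every genotype. CHS fell from 7.83 ± 1.31 to 1.86 ± 0.0661 CPM in Col-0 (log2 -2.07 ± 0.29, adjusted p = 5.11e-06) and from 7.77 ± 2.63 to 1.61 ± 0.0601 CPM in cat2 (log2 -2.27 ± 0.29, adjusted p = 6.93e-07). In shr it fell from 25.1 ± 10.5 to 5.28 ± 0.563 CPM (log2 -2.25 ± 0.26, adjusted p = 2.4e-06), and in cat2shr from 9.15 ± 2.11 to 3.97 ± 0.3 CPM (log2 -1.20 ± 0.26, adjusted p = 0.000493). At 24 h the libraries were tight, with 1.81, 1.94 and 1.85 CPM in Col-0 and 4.92, 5.93 and 5 CPM in shr. No library of 24 h reached the lowest library of 0 h. Leaf markers fell too. All 4 were lower after stress in cat2, shr and cat2shr and 2 of 4 in Col-0, and their sum went from 25200 to 25300 CPM to 9110 to 12600 CPM in cat2, from 30100 to 30900 to 17400 to 22200 CPM in shr, from 21400 to 26800 to 11600 to 14600 CPM in cat2shr, and from 37400 to 40400 to 22100 to 29200 CPM in Col-0. The 3 floral markers tested, AP1, AP3 and PI, rose in cat2, where the floral sum was 0.201 to 0.775 CPM at 0 h and 1.97 to 4.92 CPM at 24 h. The part of these markers in the stress results was not tested.

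FLS1 fell with CHS in all 4 genotypes, and by less. The changes were -1.01 ± 0.16 in Col-0 (adjusted p = 1.92e-05), -0.76 ± 0.16 in cat2 (adjusted p = 0.000292), -0.64 ± 0.15 in shr (adjusted p = 0.00187) and -0.46 ± 0.15 in cat2shr (adjusted p = 0.0122). CHI held its level in Col-0, with 5.9, 5.77 and 6.79 CPM at 24 h (log2 0.03 ± 0.15, adjusted p = 0.891). It fell by 0.56 in both cat2 (SE 0.15, adjusted p = 0.0018) and shr (SE 0.14, adjusted p = 0.00358) and by 0.38 in cat2shr (SE 0.14, adjusted p = 0.0245). CHI, with a 2.23-fold range between its highest and lowest group mean, and F3'H, with 2.15-fold, were the steadiest of the 9 genes.

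F3'H went its own way. In Col-0 it rose from 2.44 ± 0.189 to 5.12 ± 0.439 CPM, by 1.07 ± 0.14 on the log2 scale (adjusted p = 1.37e-06), while CHS and FLS1 fell. In cat2 it rose by 0.35 ± 0.13 (adjusted p = 0.022), a call that ended under library size scaling (log2 0.24, adjusted p = 0.104), without the filter on low counts and in the fit on those 2 groups. F3'H also did not pass in cat2 without replicate 1, 2 or 3 at 0 h (adjusted p = 0.118, 0.0628 and 0.109). The same held without replicate 2 or 3 of cat2 at 24 h (adjusted p = 0.096 and 0.0749). In shr (log2 -0.28 ± 0.13, adjusted p = 0.0878) and cat2shr (log2 0.16 ± 0.13, adjusted p = 0.29) it did not pass. The groups converged at 24 h, with means between 4.14 and 5.12 CPM.

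The late genes fell most in shr. DFR fell from 14.5 ± 11 to 0.285 ± 0.024 CPM, a log2 change of -5.65 (SE 0.89, adjusted p = 7.77e-05), and at 24 h its 3 shr libraries measured 0.261, 0.309 and 0.285 CPM. LDOX fell by 4.94 (SE 0.82, adjusted p = 0.00014), UGT75C1 by 1.93 (SE 0.33, adjusted p = 0.000144), UF3GT by 5.37 (SE 0.80, adjusted p = 3.88e-05) and 5MAT by 5.06 (SE 0.82, adjusted p = 8.21e-05). The libraries of the 2 times did not overlap for any of these genes, since replicate 3 of shr at 0 h, the lowest, was still above every shr library at 24 h. At 24 h all late genes but UGT75C1 lay under 1 CPM in shr. The shr libraries were then even for DFR. Replicate 3 was still the lowest for LDOX (0.423, 0.823 and 0.158 CPM) and UF3GT (0.13, 0.24 and 0.0316 CPM). These rest on 13, 24 and 5 counts of LDOX and 4, 7 and 1 of UF3GT. Whether any of the split seen at 0 h remained cannot be told from so few counts.

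In shr as a whole, 8 of 9 genes fell and none rose, whereas 20.4% of all genes rose and 20.9% fell. In cat2, 7 of 9 fell and 1 rose, where 38.7% of all genes rose and 36.3% fell. LDOX fell there by 2.48 (SE 0.90, adjusted p = 0.0189), UGT75C1 by 0.98 (SE 0.35, adjusted p = 0.0174), UF3GT by 2.94 (SE 1.01, adjusted p = 0.0133) and 5MAT by 1.90 (SE 0.82, adjusted p = 0.0431). UF3GT had only 3, 2 and 2 counts in the cat2 libraries at 24 h, so its fold change depends on few reads. DFR in cat2 went from 2.62, 1.58 and 0.991 CPM to 0.62, 0.307 and 0.741 CPM, and the test gave log2 -1.61 ± 0.84 (adjusted p = 0.0919). The number of genes called in cat2 was 4 to 7 when a library was left out, and 4 without either cat2 replicate 1 at 0 h or cat2 replicate 2 at 24 h.

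Few late genes passed in Col-0 and cat2shr. In Col-0, 1 of 9 genes rose and 2 fell, none of them late, where 29.7% of all genes rose and 29.6% fell. Replicate 1 of Col-0 at 24 h was high, with 1.73 CPM for DFR against 0.155 and 0.321 CPM, and 1.81 CPM for LDOX against 0.194 and 0.281 CPM. Without that library LDOX (log2 -2.68, adjusted p = 0.0385) and 5MAT (log2 -2.69, adjusted p = 0.0415) passed and 5 genes were called in all. In cat2shr, 4 of 9 genes fell and none rose, where 32.7% of all genes rose and 31.7% fell. UF3GT was the late gene among them (log2 -2.92 ± 0.95, adjusted p = 0.0117). DFR (log2 -1.48 ± 0.88, adjusted p = 0.153) and LDOX (log2 -1.79 ± 0.82, adjusted p = 0.0644) did not pass, although no 24 h library of cat2shr reached the lowest 0 h library for either gene.

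After stress, CHS and FLS1 were still higher in the seedlings without SHR. In shr against Col-0 at 24 h, CHS was higher by 1.50 ± 0.29 (adjusted p = 0.000251) and FLS1 by 0.95 ± 0.16 (adjusted p = 5.51e-05). FLS1 measured 3.88, 4.15 and 4.3 CPM in shr and 2.36, 2.05 and 1.97 CPM in Col-0. These were 2 of 9 genes, none being lower, where 25.8% of all genes were higher and 26.9% lower. The number higher was near the share of all genes. The late genes had changes between -1.38 and -0.17 with none passing, and their groups overlapped.

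CHS and FLS1 were also higher without SHR on the cat2 background. CHI was higher there too, though it had not passed in shr against Col-0 at 24 h (log2 0.26, adjusted p = 0.133). In cat2shr against cat2 at 24 h, CHS was higher by 1.30 ± 0.29 (adjusted p = 0.000905), FLS1 by 0.72 ± 0.16 (adjusted p = 0.000867) and CHI by 0.48 ± 0.14 (adjusted p = 0.00886). CHS measured 3.84, 3.76 and 4.32 CPM in cat2shr and 1.58, 1.57 and 1.68 CPM in cat2, with no overlap. These 3 of 9 genes, none being lower, compare with 27% of all genes higher and 28.1% lower. The number higher was near the share of all genes. In cat2shr against shr, which shares libraries with both comparisons above, FLS1 was lower (log2 -0.51 ± 0.15, adjusted p = 0.00778) and no other gene of the 9 passed, where 27.3% of all genes were higher and 27.9% lower. In cat2 against Col-0 at 24 h, F3'H (log2 -0.31 ± 0.13, adjusted p = 0.0448) and UGT75C1 (log2 -0.96 ± 0.36, adjusted p = 0.0248) were lower and none was higher, where 31.4% of all genes were higher and 32.7% lower. UGT75C1 measured 2.31, 1.57 and 1.48 CPM in cat2 and 3.5, 3.02 and 3.85 CPM in Col-0. No gene passed there without Col-0 replicate 3, and 1 passed without cat2 replicate 1 or replicate 3.

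Whether the stress responses differed between genotypes was tested directly. The response of shr differed from that of Col-0 for 7 of 9 genes, all lower, where 12.6% of all genes differed upward and 13.1% downward. The differences were -5.35 ± 1.28 for DFR (adjusted p = 0.00549) and -1.35 ± 0.19 for F3'H (adjusted p = 5.86e-05), which rose in Col-0 and did not pass in shr. CHS (-0.18 ± 0.39, adjusted p = 0.771) and FLS1 (0.37 ± 0.22, adjusted p = 0.219) did not pass. Without replicate 1 of Col-0 at 24 h, the differences of DFR (-3.72, adjusted p = 0.107), LDOX (-2.25, adjusted p = 0.289), UF3GT (-2.48, adjusted p = 0.416) and 5MAT (-2.36, adjusted p = 0.334) no longer passed, and 3 genes were called. The count was also 3 without shr replicate 3 at 24 h, and 4 without Col-0 replicate 2 or shr replicate 2 at 0 h.

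The response of cat2shr differed from that of shr for 5 of 9 genes, all higher, where 17.5% of all genes differed upward and 17.8% downward. CHS fell less in cat2shr, by a difference of 1.05 ± 0.36 (adjusted p = 0.0309), and DFR by 4.17 ± 1.30 (adjusted p = 0.019). The count was 1 to 6 when a library was left out. It was 1 without cat2shr replicate 1 at 24 h, and 2 without shr replicate 1 or 2 at 0 h, shr replicate 3 at 24 h, cat2shr replicate 3 at 0 h or cat2shr replicate 2 at 24 h. It was 3 without cat2shr replicate 2 at 0 h, shr replicate 1 at 24 h or cat2shr replicate 3 at 24 h. CHS alone differed between cat2shr and cat2 (1.06 ± 0.39, adjusted p = 0.0425), 1 of 9 genes higher and none lower where 15.6% of all genes differed upward and 15.4% downward. That call ended in 7 of 12 fits without a library, among them each of the 3 that left out a cat2 library of 24 h. Between cat2 and Col-0, CHI (-0.58 ± 0.21, adjusted p = 0.0306) and F3'H (-0.72 ± 0.19, adjusted p = 0.00486) differed downward, 2 of 9 genes, and none upward, where 18.8% of all genes differed upward and 19.4% downward. The count was 1 without cat2 replicate 2 or replicate 3 at 24 h.

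Early and late steps were also averaged per library, as the mean of log2(CPM + 0.5) over the 5 genes of each. F3H, at 0 in nearly all libraries, lowers every early mean, so the early values over the 4 measured genes are given too. In shr at 0 h the early mean was 2.57, 2.65 and 2.27 and the late mean 3.63, 3.55 and 1.10. Over the 4 measured early genes the shr early means were 3.41, 3.55 and 3.08. The late mean exceeded the early mean in 2 libraries, shr replicates 1 and 2, with all 5 early genes, and in 1 library, shr replicate 1, with the 4 measured. In Col-0 at 0 h the early mean was 1.77, 1.70 and 1.66 and the late mean 1.05, 0.66 and 0.39. The early mean varied little within groups, with SD between 0.03 and 0.20, and the late mean varied more, with SD between 0.12 and 1.43.

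**Figure D4:**
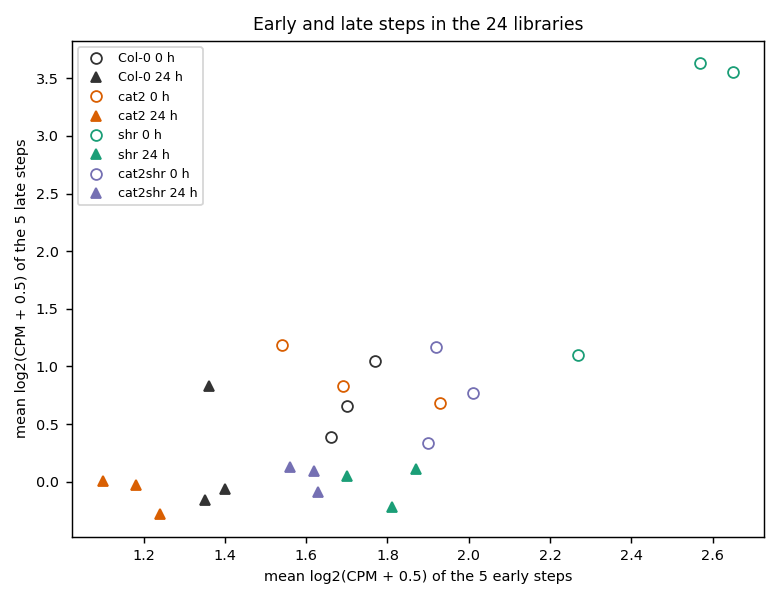
Mean log2(CPM + 0.5) of the 5 late genes against that of the 5 early genes, 1 point per library, circles at 0 h and triangles at 24 h. Replicates 1 and 2 of shr at 0 h lie alone at the upper right, and replicate 3 shares their high early mean with a late mean of 1.10.

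The gap between late and early means widened most under stress in shr. It went from 0.26 ± 1.24 to -1.81 ± 0.20 in shr, a change of -2.08, which was between -2.79 and -1.68 with a library left out. The changes were -0.16 in Col-0, -0.46 in cat2 and -0.38 in cat2shr. At 24 h the gap of Col-0 was -1.17 ± 0.55, that of cat2 -1.27 ± 0.22 and that of cat2shr -1.56 ± 0.15. The shr libraries, at -1.64, -1.76 and -2.03, lay below all libraries of Col-0 and cat2 at that time. F3H at 0 makes each of these gaps less negative. Over the 4 measured early genes the shr gaps were 0.215, -0.002 and -1.979 at 0 h and -2.318, -2.483 and -2.735 at 24 h.

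At the fork between flavonols and anthocyanins, DFR RNA was set over FLS1 RNA, in CPM per kb of exon. The ratio compares RNA only and does not measure the compounds made. In shr at 0 h the lowest, median and highest ratios were 0.294, 3.39 and 3.63, and in Col-0 they were 0.139, 0.16 and 0.343. DFR RNA thus exceeded FLS1 RNA per kb in 2 of 3 shr libraries. The highest ratio of cat2 at 0 h was 1.22, with a median of 0.531, and that of cat2shr was 0.511. At 24 h shr had the lowest ratios of the 4 genotypes, between 0.0706 and 0.0793, and Col-0 ranged from 0.0805 to 0.78. Those shr ratios rest on 8, 9 and 9 counts of DFR. Per kb, CHI was the most abundant of the 10 genes in every group but shr at 0 h, with a mean of 5.43 CPM per kb in Col-0 at 0 h. In shr at 0 h the order was CHS at 14.7, LDOX at 10.2, CHI at 9.8 and DFR at 9.54 CPM per kb, where LDOX and DFR rest on 2 libraries.

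Across the 24 libraries the late genes went together more closely than the early ones. Pearson's r of log2(CPM + 0.5) between pairs of late genes was 0.87 to 0.97 with a median of 0.94 (median Spearman's rho 0.79). Between the 4 measured early genes it was -0.07 to 0.89 with a median of 0.55 (median rho 0.49). CHS and FLS1 were the closest early pair at 0.89, and F3'H was near 0 with CHS (-0.07) and with FLS1 (-0.05). Without the 2 libraries farthest from the median for DFR, which are shr replicates 1 and 2 at 0 h, the late median was 0.75 (0.49 to 0.93) and the early median 0.38 (-0.51 to 0.86). The libraries share groups and stress state, so these values describe this set and were not tested.

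Among genes with a mean of at least 5 CPM, those most like CHS over the 24 libraries were PLC1 (AT5G58670, r = 0.951), AT5G20190 (0.950), AT1G55210 (0.944), ROC1 (AT4G38740, 0.924) and EULS3 (AT2G39050, 0.923). Within the pathway UGT78D1, a flavonol rhamnosyltransferase, had 0.903 and CHIL, a chalcone isomerase-like protein that assists CHS, had 0.889. Those most like DFR were AT1G06640 (0.842), AT5G23850 (0.802), GGT4 (AT4G29210, 0.792), EULS3 (0.779) and JAL23 (AT2G39330, 0.779). No gene of that abundance was as close to DFR as LDOX, whose r with DFR was 0.97. Without the 2 farthest libraries these 5 values for DFR were between 0.465 and 0.737, and the 5 for CHS between 0.866 and 0.967.

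The genes that feed and finish the pathway did not move as a block. Of 8 phenylpropanoid genes, which make 4-coumaroyl-CoA from phenylalanine, 4 rose and 1 fell between Col-0 and shr at 0 h, with a median of 0.42, where 21.3% of all genes were higher and 24.1% lower. PAL1, a phenylalanine ammonia-lyase, was higher by 1.00 ± 0.25 (adjusted p = 0.00316) and C4H, the cinnamate hydroxylase, by 0.45 ± 0.12 (adjusted p = 0.00357). Under stress C4H rose by 1.91 ± 0.12 in cat2 (adjusted p = 3.48e-11) and by 1.39 ± 0.12 in cat2shr (adjusted p = 8.31e-09), while CHS fell in both. In Col-0 (0.20, adjusted p = 0.149) and shr (0.11, adjusted p = 0.45) C4H did not pass. 4CL3, a coumarate ligase, fell in all 4 genotypes, by 1.08, 1.43, 0.81 and 1.33 in Col-0, cat2, shr and cat2shr.

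Of 15 other flavonoid and anthocyanin genes, 14 were tested. In shr against Col-0 at 0 h, 8 were higher and none lower against those same shares of all genes, with a median of 0.64, and TT19 led with 2.68 ± 0.57 (adjusted p = 0.000968). Under stress in Col-0, 3 rose and 6 fell (median -0.21), in cat2 5 and 6 (median -0.97), in shr 3 and 6 (median -0.87) and in cat2shr 6 and 4 (median 0.69). Over all genes tested 29.7% rose and 29.6% fell in Col-0, 38.7% and 36.3% in cat2, 20.4% and 20.9% in shr, and 32.7% and 31.7% in cat2shr, so several of these counts lay near the shares of all genes. TT19 fell by 4.90 in shr (SE 0.68, adjusted p = 1.88e-05), by 2.96 in cat2shr (SE 0.70, adjusted p = 0.0012) and by 2.36 in Col-0 (SE 0.73, adjusted p = 0.00935). CHIL fell by 1.72 in Col-0, 1.54 in cat2 and 0.98 in shr, and in cat2shr its change of -0.46 did not pass (adjusted p = 0.0868).

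Some decorating enzymes rose under stress. 3AT1, an anthocyanin coumaroyltransferase, rose by 2.01 ± 0.25 in Col-0 (adjusted p = 1.09e-06), 2.60 ± 0.24 in cat2 (adjusted p = 6.6e-09), 1.00 ± 0.22 in shr (adjusted p = 0.00144) and 1.91 ± 0.23 in cat2shr (adjusted p = 7.51e-07). UGT78D2 rose by 1.12 ± 0.16 in cat2 (adjusted p = 3.83e-06), from 9.22, 11.6 and 11.5 CPM to 25.2, 23.4 and 21.7 CPM. It also rose in cat2shr, by 0.83 ± 0.16 (adjusted p = 0.000186). In Col-0 (0.38, adjusted p = 0.0577) and shr (-0.10, adjusted p = 0.651) UGT78D2 did not pass.

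Of 18 regulators, 16 were tested, and their list mixes activators and repressors. Under stress Col-0 had 7 higher and 4 lower, cat2 had 6 and 5, shr had 6 and 6, and cat2shr had 7 and 3, with medians of 0.21, -0.09, -0.37 and 0.26. The shares of all genes are those given above for the same responses, and the cat2 counts were near them. MYB75 fell in all 4 genotypes, by 2.97 in Col-0 (SE 0.70, adjusted p = 0.00125), 4.26 in cat2 (SE 0.64, adjusted p = 7e-06), 4.30 in shr (SE 0.56, adjusted p = 9.07e-06) and 2.03 in cat2shr (SE 0.57, adjusted p = 0.00444). EGL3, a bHLH partner in the complex, and MYB111 of the flavonol branch fell in all 4 as well. MYB111 fell by 0.77, 1.94, 1.54 and 2.25 in Col-0, cat2, shr and cat2shr, and MYB12 passed in none, with changes between -1.32 and -0.50.

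MYBL2 and HY5 rose in all 4 genotypes. MYBL2, the repressor, rose by 1.51 ± 0.15 in Col-0 (adjusted p = 1.16e-07) and by 1.27 to 1.29 in the 3 mutants. At 24 h it measured 253, 278 and 312 CPM in Col-0 and 76.1, 79.8 and 92.6 CPM in shr, so its lower level without SHR was also measured after stress (log2 -1.76 ± 0.16, adjusted p = 2.55e-08). HY5, a bZIP factor of the light response, rose by 1.31, 1.06, 0.95 and 0.88 in Col-0, cat2, shr and cat2shr. MYB90 (PAP2), the close relative of MYB75, had 0 counts in all 3 Col-0 libraries at 0 h. In shr it measured 0.272, 0.468 and 0.138 CPM at 0 h and 0.586, 1.41 and 0.475 CPM at 24 h. At 0 h MYB90 and MYB75 were thus both higher in every shr library than in any Col-0 library. Under stress in shr they moved apart, at low levels of MYB90. It rose there by 1.46 ± 0.53 (adjusted p = 0.0339), while MYB75 and the 5 late enzyme genes fell. TT8 was higher in shr than Col-0 at 0 h (log2 2.60 ± 0.66, adjusted p = 0.00336), fell there under stress by 2.08 (SE 0.62, adjusted p = 0.0107) and passed in no other stress response.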

How the data were processed

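The deposited table holds raw gene counts that the authors left as whole numbers, 1 column per library, and the study's 24 libraries are all used. Per the submitters' processing notes, Trim Galore 0.3.3, TopHat2 2.1.0, featureCounts and Subread 1.4.6 were used with the build TAIR10. The sources used here give neither the strand setting nor the annotation. Gene positions, overlaps and promoter sequences came from the RefSeq genome TAIR10.1 by locus, and the table holds no coordinates.

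Genes were kept by filterByExpr of edgeR 4.0.16 (R 4.3.3), libraries were scaled by TMM with factors of 0.936 to 1.1, and 1 quasi-likelihood model with a mean per group was fitted robustly to all 24 libraries (common dispersion 0.0195). It was tested for 16 contrasts, with Benjamini-Hochberg adjustment over all genes. The SE was obtained as the size of the log2 change over the root of F. The fit was tested on simulated data. Genes were named by a list of loci, and likeness by the 5 highest r. The members and lists were chosen with earlier results of these data known. Alternatives were RLE and library size scaling, DESeq2 1.42.0, no filter, 5 CPM in 3 libraries as the filter, a block for the replicate number, fits on only the groups compared, and each library left out.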

Additional observations from a re-analysis of the deposited data

Results flagged for a closer look

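These genes responded to stress differently in 2 genotypes by a test of the difference itself (edgeR's quasi-likelihood test, log2 difference ± SE, n = 3 libraries per group), and the libraries behind each are shared between comparisons. Relative to Col-0, the response of shr was lower for DFR (-5.35 ± 1.28, adjusted p = 0.00549), UF3GT (-4.10 ± 1.35, adjusted p = 0.0319), LDOX (-3.92 ± 1.19, adjusted p = 0.0216) and 5MAT (-3.58 ± 1.29, adjusted p = 0.0466). It was also lower for UGT75C1 (-1.72 ± 0.47, adjusted p = 0.0118), F3'H (-1.35 ± 0.19, adjusted p = 5.86e-05) and CHI (-0.59 ± 0.20, adjusted p = 0.0392). The differences of DFR, LDOX, UF3GT and 5MAT did not pass without replicate 1 of Col-0 at 24 h. Those of LDOX, UF3GT and 5MAT also did not pass in the fit on only the groups compared. F3'H rose in Col-0 without overlap, from at most 2.64 to at least 4.79 CPM, and its shr libraries of the 2 times overlapped.

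Relative to Col-0, the response of cat2 was lower for F3'H (-0.72 ± 0.19, adjusted p = 0.00486) and CHI (-0.58 ± 0.21, adjusted p = 0.0306). Relative to cat2, the response of cat2shr was higher for CHS (1.06 ± 0.39, adjusted p = 0.0425). Relative to shr, it was higher for DFR (4.17 ± 1.30, adjusted p = 0.019), 5MAT (4.03 ± 1.29, adjusted p = 0.0203), LDOX (3.14 ± 1.19, adjusted p = 0.047), UGT75C1 (1.41 ± 0.47, adjusted p = 0.0249) and CHS (1.05 ± 0.36, adjusted p = 0.0309). For UF3GT that difference was 2.44 ± 1.50 and did not pass (adjusted p = 0.215).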

How the results depend on the processing

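No direction of a called gene reversed under any alternative run. RLE scaling changed none of 144 member results, counting those called and those not called. The replicate block ended no call and added 3, all for F3'H. These were cat2shr against shr at 0 h (-0.46, adjusted p = 0.0278), the shr response (-0.28, adjusted p = 0.0497) and the difference of the cat2shr and shr responses (0.44, adjusted p = 0.0382). The labels do not say that a number is shared, and r between same-numbered deviations was -0.278 to 0.417 over 84 pairs, 37 of them over 0.1, so the samples were not treated as paired. The median r was 0.0558 for the same number and -0.0352 for other numbers, and 17 of 24 libraries were closest to their own number, a hint from the data of something shared.

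Counts of members called that moved by over 1.5 times were as follows. With library size scaling they were 1 for cat2 against Col-0 at 0 h, 0 for cat2shr against cat2 at 0 h and 3 for the cat2shr response against that of shr. Without the filter, cat2shr against cat2 at 0 h had 0. With 5 CPM in 3 libraries, which tests fewer members, they were 5 for the cat2 response, 4 for the shr response, 5 for shr against Col-0 at 0 h, 4 for cat2shr against shr at 0 h, 1 for cat2 against Col-0 at 24 h, 3 for the shr response against Col-0 and 2 for the cat2shr response against shr. DESeq2 gave 1 for cat2 against Col-0 at 24 h, and 1234 of all genes for cat2shr against shr at 0 h, where edgeR gave 616. In fits on only the groups compared they were 1 for cat2 against Col-0 at 0 h and at 24 h, 0 for cat2shr against cat2 and against shr at 0 h (4712 and 7 of all genes), 2 for cat2shr against shr at 24 h, and 1, 4 and 2 for the responses of cat2 and shr against Col-0 and of cat2shr against shr. Without replicate 1 of shr and cat2shr at 0 h they were 0 for cat2shr against cat2, 3 for cat2shr against shr, 4 for the shr response against Col-0 and 3 for the cat2shr response against shr. A pseudocount of 0.1 moved the late minus early change of cat2 to -1.0. Except for the filter of 5 CPM, the cause was not tested.

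With 1 library left out, 961 member results stayed as they were, counting those called and those not called. Of the calls, 108 ended, and 11 were added. Member counts ranged from 3 to 5 for the Col-0 response, 4 to 7 for cat2, 8 to 9 for shr and 3 to 4 for cat2shr. At 0 h they were 0 to 2 for cat2 against Col-0, 9 for shr against Col-0, 0 to 2 for cat2shr against cat2 and 2 to 8 for cat2shr against shr. At 24 h they were 0 to 3, 2, 3 and 1. For the differences between responses they were 1 to 2 (cat2 and Col-0), 3 to 7 (shr and Col-0), 0 to 1 (cat2shr and cat2) and 1 to 6 (cat2shr and shr). Of all genes, 2988 to 4163 were called for cat2 against Col-0 at 0 h (4741 with all libraries) and 225 to 970 for cat2shr against shr. The late minus early change was -0.47 to 0.02 in Col-0, -0.67 to -0.22 in cat2, -2.79 to -1.68 in shr and -0.56 to -0.17 in cat2shr. Late genes at 24 h rest on few counts, which limits the precision of their fold changes.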

Other observations

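The late mean of log2(CPM + 0.5) was highest in the library numbered 1 and lowest in the library numbered 3 in 4 of 4 genotypes at 0 h. At 24 h the library numbered 1 was highest in 3 of 4 and the library numbered 3 lowest in 1 of 4. In cat2 at 0 h the late mean was 1.19, 0.83 and 0.68 in libraries 1, 2 and 3, and in cat2shr it was 1.17, 0.77 and 0.34. The early mean showed no such order in cat2, with 1.54, 1.69 and 1.93. The labels do not say what a replicate number stands for, and what it shares was not tested.

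WOX5, a root stem cell marker, measured 0.835 ± 0.349 CPM in cat2 and 1.02 ± 0.532 CPM in cat2shr at 0 h, against 0.278 ± 0.079 CPM in Col-0 libraries and 0.139 ± 0.0642 CPM in shr libraries (SD, n = 3). OMT1, an O-methyltransferase of the phenylpropanoid and flavonoid routes chosen here after its values were seen, was higher in all 3 mutant comparisons with Col-0 or cat2 at 0 h, by 1.35 ± 0.12 in cat2 (adjusted p = 3.11e-07), 0.67 ± 0.11 in shr (adjusted p = 0.000109) and 0.47 ± 0.11 in cat2shr against cat2 (adjusted p = 0.00316), by edgeR. It passed in none of the 4 stress responses, with changes between -0.17 and 0.08.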
